A study of Mus musculus with 6 samples.

Results

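The genes of mitochondrial tRNA-His-GTG, tRNA-Ser-GCT and tRNA-Leu-TAG lie next to each other between the Nd4 and Nd5 genes of mouse mitochondrial DNA, and the small RNAs cut from these 3 tRNAs are described here. Such tRNA-derived small RNAs (tsRNAs) were taken from a deposited table in which each distinct sequence carries the names of the tRNAs it can come from. A sequence was a member when every one of its names was one of these 3 tRNAs. This gave 1184 of the table's 38798 sequences, of which 674 came from tRNA-His-GTG (mt_tRNA-His-GTG in the table), 201 from tRNA-Ser-GCT (mt_tRNA-Ser-GCT) and 309 from tRNA-Leu-TAG (mt_tRNA-Leu-TAG). No member was shared with another tRNA, and none was named as a precursor fragment in the table. Whether a fragment came from a mature tRNA or an uncut transcript was not checked beyond these names. All mitochondrial tRNAs together had 6442 sequences of their own in the table.

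The cells were primary smooth muscle cells of the pulmonary artery from wild-type mice, with no allele or agent other than the oxygen level named in the labels. The hypoxia group (3 libraries) was kept at 3% oxygen for 24 h, and the normoxia group (3 libraries) was cultured under standard conditions. The design text calls the 3 libraries of each group biological replicates and gives the search for tsRNAs that respond to hypoxia as the study's purpose. RNA was treated with enzymes before library construction to remove base modifications that block adapter ligation and reverse transcription (the PANDORA-seq strategy). The table holds tRNA fragments alone, so the identity of the cells was not checked against smooth muscle markers.

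Mitochondrial DNA is copied into long transcripts, and tRNAs that sit between the protein genes are cut out of them; the cleavage at the tRNA ends also frees the neighbouring messenger RNAs. Each mature mitochondrial tRNA then receives a CCA tail at its 3′ end, which is not encoded, and delivers its amino acid to the mitochondrial ribosome. The tRNA for serine with the anticodon GCT is unusual in lacking the whole D arm, and tRNAs for histidine carry an extra G in front of their first base. Fragments cut from mature tRNAs, with ends in or near the anticodon loop, are found in many cells under stress.

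The gene sequences are shown because every fragment below is named by its first and last position in them, counted from 1 at the first base of the gene, with the CCA tail counted on after the last. They come from the GENCODE M21 annotation of GRCm38, the assembly of mm10, and the capitals mark the anticodon, found by searching for the triplet of the tRNA's name inside a paired stem.
mt-Th (tRNA-His-GTG): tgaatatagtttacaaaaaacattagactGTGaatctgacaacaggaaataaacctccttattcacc
mt-Ts2 (tRNA-Ser-GCT): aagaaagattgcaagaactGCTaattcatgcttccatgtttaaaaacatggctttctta
mt-Tl2 (tRNA-Leu-TAG): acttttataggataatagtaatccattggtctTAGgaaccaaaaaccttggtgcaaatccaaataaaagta
The mt-Th gene (ENSMUSG00000064364.1) lies at chrM:11546-11612, is 67 nt long and has its anticodon at positions 30 to 32. The mt-Ts2 gene (ENSMUSG00000064365.1) lies at chrM:11613-11671, is 59 nt long and has its anticodon at positions 20 to 22. The mt-Tl2 gene (ENSMUSG00000064366.1) lies at chrM:11671-11741, is 71 nt long and has its anticodon at positions 33 to 35. All 3 are on the plus strand, and A and T make up 68.7%, 67.8% and 69.0% of their bases. There is 1 base between the end of mt-Nd4 and mt-Th, 0 bases between mt-Th and mt-Ts2, and 0 between mt-Tl2 and mt-Nd5, while mt-Ts2 and mt-Tl2 share the single base 11671.

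The fragments that the results below turn on are the most abundant ones and those whose counts differed most between the groups, again with the anticodon bases in capitals.
tRNA-Ser-GCT, positions 1 to 19: aagaaagattgcaagaact
tRNA-Ser-GCT, positions 1 to 20: aagaaagattgcaagaactG
tRNA-Ser-GCT, positions 1 to 21: aagaaagattgcaagaactGC
tRNA-Ser-GCT, positions 1 to 22: aagaaagattgcaagaactGCT
tRNA-Ser-GCT, positions 1 to 41: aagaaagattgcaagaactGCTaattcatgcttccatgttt
tRNA-His-GTG, positions 15 to 50: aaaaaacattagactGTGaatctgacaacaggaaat
tRNA-His-GTG, positions 22 to 37: attagactGTGaatct
tRNA-His-GTG, positions 24 to 43: tagactGTGaatctgacaac
tRNA-His-GTG, extra G to position 39: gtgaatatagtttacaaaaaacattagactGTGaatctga
tRNA-Leu-TAG, positions 1 to 40: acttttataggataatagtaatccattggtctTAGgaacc
tRNA-Leu-TAG, positions 17 to 33: agtaatccattggtctT
tRNA-Leu-TAG, positions 17 to 40: agtaatccattggtctTAGgaacc
The Ser fragments share their first base, and 4 of the 5 end just before or inside the anticodon. The His and Leu fragments shown hold the whole anticodon, except for the Leu fragment that stops at position 33, the first anticodon base.

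The libraries numbered 1 stood apart from the others in both groups. They held 510519 (hypoxia) and 330787 (normoxia) tsRNA counts, against 1629726 to 2563749 in the other 4, and mitochondrial tRNAs took 15.3% and 14.4% of these counts against 6.0% to 7.33%. The 3 tRNAs together had 17766, 31432 and 19978 counts in hypoxia 1 to 3, against 12997, 34563 and 33032 in normoxia 1 to 3. A count of 0 in a library allows a level of up to 1.17 to 9.07 counts per 1000000 tsRNA counts (CPM), taking 3 counts as the limit. No molecular identifiers were counted, so intervals and limits cover counting error only. In bulk RNA, fewer cells with a fragment and less of it per cell cannot be told apart.

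Fragments of tRNA-Ser-GCT were the most abundant of the 3 and were lower in hypoxia in each same-numbered pair of libraries, fragments of tRNA-His-GTG were lower in each pair by a varying amount, and those of tRNA-Leu-TAG had no common direction. For tRNA-Ser-GCT the summed level was 16227, 8816 and 8456 CPM in hypoxia 1 to 3 and 19454, 11505 and 14674 CPM in normoxia 1 to 3. The hypoxia level was thus 0.83, 0.77 and 0.58 times the normoxia level of the same number, with group means of 11166 ± 4386 and 15211 ± 4001 CPM (SD, n = 3 each). The groups overlapped, because hypoxia 1 lay above normoxia 2 and 3. Pairs here follow the replicate numbers in the sample titles, and the pairing rests on the libraries numbered 1. Replicates 2 and 3 alone showed no pairing over all tested sequences (correlation of -0.02).

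tRNA-His-GTG stood at 12918, 3143 and 2853 CPM in hypoxia 1 to 3 and at 13737, 3729 and 5303 CPM in normoxia 1 to 3. Its pair ratios were 0.94, 0.84 and 0.54. Both libraries numbered 1 lay above the other 4, and the lower of them was 2.44 times the highest of the others.

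tRNA-Leu-TAG stood at 5655, 301 and 347 CPM in hypoxia 1 to 3 and at 6101, 349 and 291 CPM in normoxia 1 to 3, with pair ratios of 0.93, 0.86 and 1.19. Here the lower of the libraries numbered 1 was 16.2 times the highest of the other 4. The mean of the libraries numbered 1 over the mean of the other 4 was 18.2 for tRNA-Leu-TAG, which ranked 2 of all 73 tRNA families of the table after mitochondrial tRNA-Ile-GAT (18.8). The same ratio was 3.55 for tRNA-His-GTG and 1.64 for tRNA-Ser-GCT, with a median of 3.87 over the other 19 mitochondrial tRNAs. The level of tRNA-Leu-TAG thus differed far more between the libraries numbered 1 and the others than between hypoxia and normoxia.

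**Figure D1:**
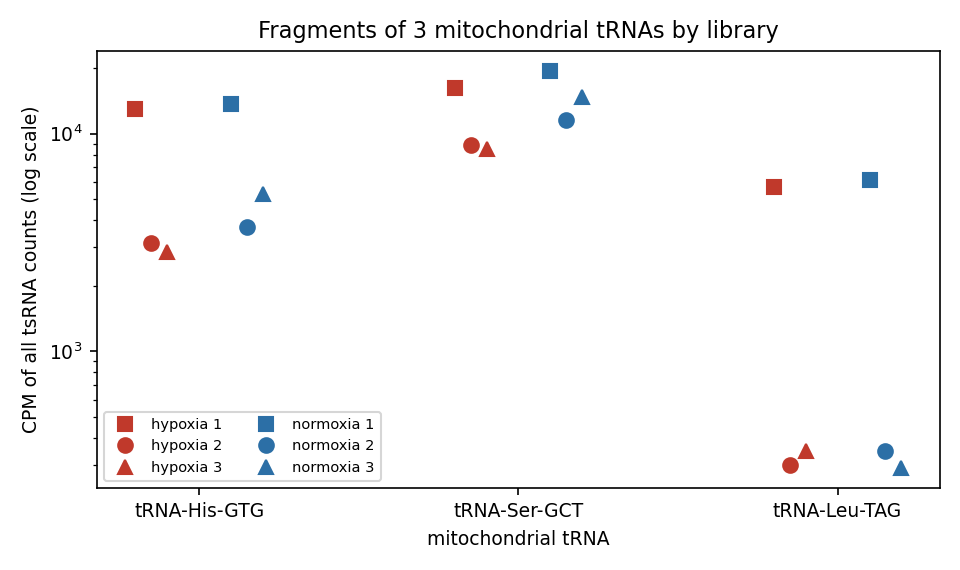
Summed level of the fragments of each tRNA in each library, in CPM of all tsRNA counts on a log scale, with hypoxia in red and normoxia in blue and the library number given by the marker. The libraries numbered 1 lie highest for all 3 tRNAs, and those of tRNA-Leu-TAG lie at 5655 and 6101 CPM against 291 to 349 CPM in the other 4.

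Per base of tRNA length, the order of the levels was the same in all 6 libraries, with tRNA-Ser-GCT above tRNA-His-GTG and tRNA-Leu-TAG lowest. The level per nt ran from 143 to 330 CPM for tRNA-Ser-GCT, from 42.6 to 205 CPM for tRNA-His-GTG and from 4.11 to 85.9 CPM for tRNA-Leu-TAG. Although the 3 genes abut and are copied into the same transcript, their fragments differed in level per nt within every library. By mean CPM they ranked 2 (Ser), 4 (His) and 9 (Leu) among the 22 mitochondrial tRNAs.

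The differences between the groups were tested on counts summed by tRNA, over all 73 families, with edgeR's quasi-likelihood test and library scaling by the trimmed mean of M-values (TMM), and a p adjusted by Benjamini-Hochberg under 0.05 was taken as a call. With the group alone in the model the log2 difference (hypoxia over normoxia) was -0.52 (SE 0.23) for tRNA-Ser-GCT, -0.39 (SE 0.43) for tRNA-His-GTG and -0.15 (SE 1.28) for tRNA-Leu-TAG, each with an adjusted p of 0.996 in edgeR. No family was called in either direction (0%), and 2 lower families (2.74%) and 0 higher ones, none of them a member, had an unadjusted p under 0.05. The groups did not overlap for 2 lower families (2.74%) and 1 higher family (1.37%), again none of them a member, and 26% of all families were lower in all 3 pairs, as tRNA-Ser-GCT and tRNA-His-GTG were. DESeq2 called 2 families and limma voom 0, again without a member.

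Same-numbered libraries deviated together from their group means, so the replicate number was also put in the model as a block. This pairing rests on the libraries numbered 1. The edgeR differences were then -0.51 (SE 0.15, adjusted p = 0.072) for tRNA-Ser-GCT, -0.44 (SE 0.18, adjusted p = 0.192) for tRNA-His-GTG and -0.06 (SE 0.19, adjusted p = 0.926) for tRNA-Leu-TAG, and 3 lower families (4.11%) were called, none of them a member. The block with DESeq2 size factors in place of TMM gave smaller edgeR differences for Ser and His. They were -0.34 (SE 0.14, adjusted p = 0.205) for tRNA-Ser-GCT and -0.27 (SE 0.20, adjusted p = 0.437) for tRNA-His-GTG. That fit called 3 higher families and 1 lower family of the 73, again without a member. Without both libraries numbered 1, edgeR called tRNA-Ser-GCT lower, at -0.63 (SE 0.14, adjusted p = 0.045), as 1 of 8 lower families (11%), with 2 libraries left in each group. tRNA-His-GTG was then at -0.62 (SE 0.19, adjusted p = 0.095) and tRNA-Leu-TAG at -0.01 (SE 0.17, adjusted p = 0.985). With the block and without the libraries numbered 1, both tRNA-Ser-GCT (-0.61, adjusted p = 0.003) and tRNA-His-GTG (-0.59, adjusted p = 0.021) were called by edgeR. This fit also had 2 libraries left in each group. Its block had no pairing to follow, since group-centred values correlated at -0.02 when replicates 2 and 3 alone were used. Over all settings run, including DESeq2 and limma voom, the adjusted p ran from 0.003 to 0.999 for tRNA-Ser-GCT and from 0.021 to 0.999 for tRNA-His-GTG, and both calls were made only where the libraries numbered 1 were left out.

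As a share of all mitochondrial tRNA counts, tRNA-Ser-GCT made up 10.6%, 14.7% and 14.0% in hypoxia 1 to 3 and 13.5%, 17.4% and 20.03% in normoxia 1 to 3. The mean shares were 13.1 ± 2.17% and 16.97 ± 3.26% (SD, n = 3 each), the share was lower in hypoxia in 3 of 3 pairs, and the groups overlapped (exact two-sided permutation test, p = 0.3, adjusted p = 0.75 over 6 tests). The smallest p that 3 against 3 libraries allow is 0.1. For tRNA-His-GTG the share was 8.47%, 5.24% and 4.72% against 9.56%, 5.62% and 7.24% (exact p = 0.5, adjusted p = 0.75), also lower in 3 of 3 pairs. For tRNA-Leu-TAG it was 3.71%, 0.501% and 0.575% against 4.25%, 0.526% and 0.398% (exact p = 0.9, adjusted p = 0.9). The 3 tRNAs together took 22.8%, 20.4% and 19.3% of mitochondrial counts in hypoxia and 27.4%, 23.5% and 27.7% in normoxia, given here without a test because the members were chosen with results known. The total includes tRNA-Val-TAC, the most abundant mitochondrial tRNA, which was higher in hypoxia in each pair. It had 57179, 30629 and 32784 CPM in hypoxia and 37402, 28078 and 23324 CPM in normoxia. Shares without it were not computed, so these shares do not show a fall relative to the remaining mitochondrial tRNAs.

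The other 19 mitochondrial tRNAs serve as the background for these differences. With the group alone edgeR called 0 of them, with the block 2 lower and 0 higher, and without the libraries numbered 1 it called 6 lower and 0 higher. Their median log2 difference was -0.14 with the group alone and -0.26 with the block. Of the 11 others on the heavy-strand transcript, which also carries the 3 members, 6 were lower in all 3 pairs, as were 2 of the 8 on the light-strand transcript. In the other direction, tRNA-Val-TAC on the heavy-strand transcript and tRNA-Glu-TTC on the light-strand transcript were higher in all 3 pairs. The lowest pair ratios in this list belonged to tRNA-Phe-GAA, and tRNA-Ser-GCT and tRNA-His-GTG lay inside the range of the others.

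**Figure D2:**
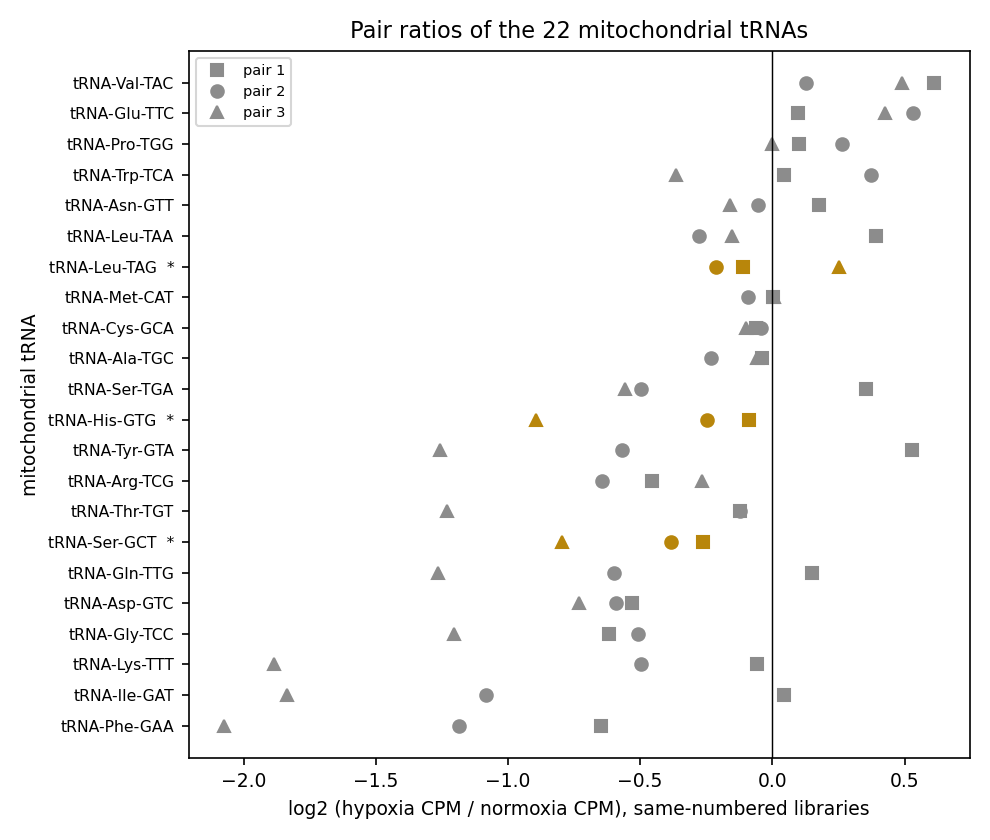
Log2 ratio of the hypoxia level to the normoxia level in each same-numbered pair of libraries, for the 22 mitochondrial tRNAs ordered by the log2 difference in the fit with the replicate block, with the 3 members in gold and marked by asterisks. All 3 pairs of tRNA-His-GTG and tRNA-Ser-GCT lie below 0, as do those of 8 of the other 19, and tRNA-Leu-TAG has pairs on both sides of 0. For 2 of the other 19, all 3 pairs lie above 0.

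The 3 tRNAs differed in which part of the molecule their fragments came from. The table sorts fragments of mature tRNAs into 5′ ends, 3′ ends without the tail, CCA ends and internal fragments, the last being all others. For tRNA-Ser-GCT, 31 sequences of the 5′ end class held 93.9%, 95.8% and 96.4% of its counts in hypoxia 1 to 3 and 95.4%, 96.0% and 97.2% in normoxia 1 to 3. For tRNA-His-GTG, 653 internal sequences held 99.5%, 99.2% and 99.6% in hypoxia and 99.4%, 98.9% and 99.2% in normoxia. tRNA-Leu-TAG was mixed, with 19.9%, 3.24% and 2.69% of its counts in the 5′ end class in hypoxia and 18.04%, 6.46% and 13.5% in normoxia, and nearly all the rest internal. Counting error set the widest 95% Wilson interval of any such share in 1 library at ± 0.613 to 1.22 points for Ser, ± 1.05 to 1.45 for His and ± 1.82 to 4.48 for Leu.

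Positions show the same division more finely. Of the counts summed over the 6 libraries, 98.2% of tRNA-His-GTG and 81.0% of tRNA-Leu-TAG lay in fragments that held the whole anticodon, against 28.6% of tRNA-Ser-GCT. In tRNA-Ser-GCT 40.7% of the counts lay wholly before the anticodon, and 35.4% ended at one of its 3 bases. Fragments that reached the last encoded base or the tail were rare in each, at 0.80% of the His, 0.20% of the Ser and 0.09% of the Leu counts.

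**Figure D3:**
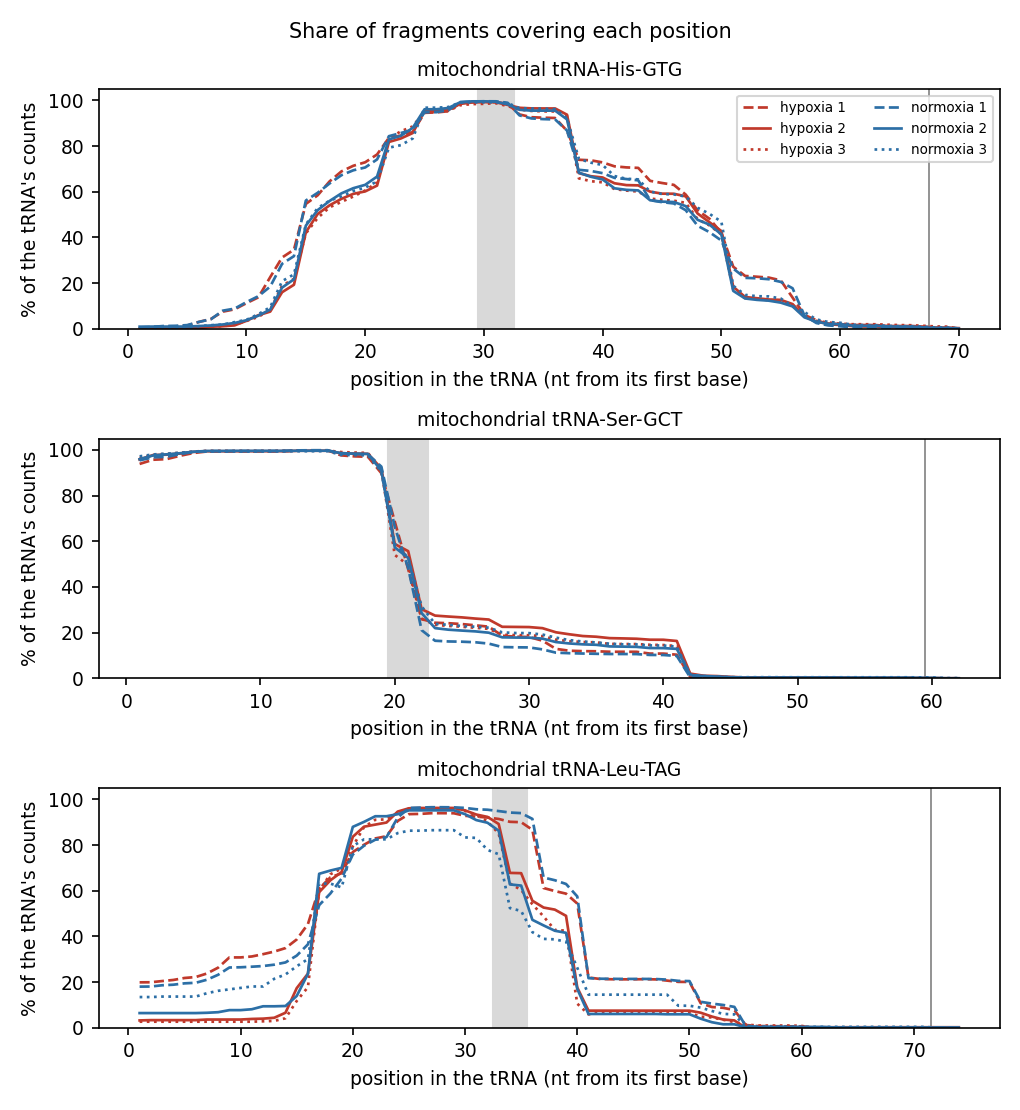
Percent of each tRNA's counts that cover each position from its first base, 1 line per library, with hypoxia in red, normoxia in blue, the anticodon shaded grey and the last encoded base marked by a vertical line. tRNA-Ser-GCT is covered from its first base to the anticodon, tRNA-His-GTG around the anticodon, and in tRNA-Leu-TAG the libraries numbered 1 reach further to both sides than hypoxia 2 and 3 and normoxia 2.

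For the class shares the exact two-sided permutation test gave adjusted p values from 0.764 to 1 over 12 tests, and 3 against 3 libraries cannot pass 0.05 there. The 5′ end share of tRNA-Ser-GCT averaged 95.4 ± 1.32% in hypoxia and 96.2 ± 0.905% in normoxia (exact p = 0.5). Mean fragment length was 23.1, 24.3 and 23.5 nt in hypoxia and 22.5, 23.4 and 23.7 nt in normoxia for tRNA-Ser-GCT. For tRNA-His-GTG it was 30.8, 28.3 and 28.0 nt against 29.9, 28.3 and 28.97 nt. For tRNA-Leu-TAG it was 26.5, 20.4 and 19.6 nt against 26.3, 20.3 and 20.96 nt, so that its fragments were longer in both libraries numbered 1. The length tests gave exact p values of 0.5, 1 and 0.8 in this order, each with an adjusted p of 1 over 7 tests.

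In the edgeR fit on counts summed by tRNA and class, 0 of 240 pairs of tRNA and class were called in either direction, and 2 higher and 2 lower had an unadjusted p under 0.05. DESeq2, limma voom and edgeR with the block also called 0, and edgeR without the libraries numbered 1 called 4 lower (1.69%) and 1 higher (0.422%), none of them a member. Of the 8 member pairs that passed the filter on low counts, all were lower in hypoxia with the group alone, where 48.3% of all 240 were lower. These 8 are classes of 3 tRNAs, so they are not independent. Their log2 differences ran from -2.64 to -0.12, with a median of -0.28 against 0.01 over all 240. Both Leu pairs were small beside their SE, at -0.12 (SE 1.91) for the 5′ end class and -0.13 (SE 1.19) for the internal class. The pair at -2.64 (SE 1.27, adjusted p = 0.996 in edgeR) was the 5′ end class of tRNA-His-GTG. The 5′ end class of tRNA-Ser-GCT was at -0.56 (SE 0.31) and its internal class at -0.21 (SE 0.37). With the block, 4 of the 8 had an unadjusted p under 0.05, all lower, where 8.75% of all pairs were lower and 6.25% higher by that measure.

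Among single sequences, 226 of the 1184 members passed the filter (164 of His, 47 of Ser and 15 of Leu), and they held 85.2% of the His, 98.9% of the Ser and 35.5% of the Leu counts. With the group alone, edgeR called 0 of the 6452 sequences tested. At an unadjusted p under 0.05, 2 members were lower (0.885%) and 0 higher, where 0.418% of all tested sequences were lower and 0.279% higher; DESeq2 and limma voom also called 0 sequences. DESeq2 had 3 lower and 0 higher members at an unadjusted p under 0.05 (0.775% of all tested sequences lower and 0.527% higher), and limma voom had 7 lower and 0 higher (0.821% and 0.868%). The median log2 difference was -0.33 over the members and 0.02 over all sequences tested, and it was -0.36 for His, -0.32 for Ser and -0.01 for Leu. Members lower in all 3 pairs numbered 50 (22.1%) and higher in all 3 numbered 10 (4.42%), against 13.4% and 15% of all tested sequences. The groups did not overlap for 8 lower members (3.54%) and 1 higher member (0.442%), against 2.51% and 2.32% of all tested sequences. By tRNA, the lower ones were 5 of 47 for Ser (10.6%), 3 of 164 for His (1.83%) and 0 of 15 for Leu, and the higher one was the His fragment of positions 10 to 31. The 5 Ser fragments were positions 1 to 19, 1 to 22, 1 to 23, 2 to 22 and 3 to 21, and the 3 His fragments were positions 15 to 38, 15 to 40 and 24 to 43, listed here after their values were seen.

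With the replicate block 17 members had an unadjusted p under 0.05, all lower (7.52%), against 2.98% of all tested sequences lower and 3.41% higher. They were 11 of the 164 His, 5 of the 47 Ser and 1 of the 15 Leu sequences. The block led edgeR to call 5 lower (0.0775%) and 5 higher (0.0775%) sequences of the whole table, and 1 of the 5 lower ones was a member, the Ser fragment of positions 1 to 22.

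This fragment ends at the last base of the anticodon. It had 128, 622 and 373 counts in hypoxia 1 to 3, compared with 286, 1657 and 1806 in normoxia 1 to 3, which is 251, 243 and 218 CPM against 865, 747 and 1108 CPM. The groups did not overlap, the means were 237 ± 17.3 and 907 ± 184 CPM (SD, n = 3 each), and hypoxia was at 0.29, 0.32 and 0.20 times normoxia in the 3 pairs. The log2 difference in edgeR was -1.97 (SE 0.53, adjusted p = 0.9999, unadjusted p = 0.006) with the group alone and -1.93 (SE 0.31, adjusted p = 0.003) with the block. Without the libraries numbered 1 it was -2.05 (SE 0.30, adjusted p = 0.031 in edgeR), the 1 sequence called lower (0.0154%) of the table. With the block it kept its direction but was not called without the libraries numbered 2 (-2.03, adjusted p = 0.098 in edgeR), and over all settings run, DESeq2 and limma among them, its adjusted p ran from 0.00025 to 0.99999. Hypoxia 1 lay just above hypoxia 2 and 3, and normoxia 1 between normoxia 2 and 3, so this fragment did not show the excess that the libraries numbered 1 had in the summed level of the tRNA.

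The neighbouring rungs of this ladder differed less. Positions 1 to 19, a fragment that ends just before the anticodon and was the most abundant of all members, gave 3379, 2881 and 3111 CPM in hypoxia and 5088, 3824 and 4587 CPM in normoxia. Its groups did not overlap either, with pair ratios of 0.66, 0.75 and 0.68, and a log2 difference of -0.53 (SE 0.49, adjusted p = 0.9999 in edgeR). Positions 1 to 21 gave 3075, 2050 and 1840 CPM against 4825, 2514 and 3005 CPM, with pair ratios of 0.64, 0.82 and 0.61. Hypoxia 1 lay above normoxia 2 and 3 for this fragment, so its groups overlapped. Positions 1 to 23, the next longer rung, gave 29.4, 36.3 and 39.7 CPM in hypoxia and 54.4, 83.4 and 62.6 CPM in normoxia. The groups of this rung did not overlap, with pair ratios of 0.54, 0.43 and 0.63, and it rests on 15 to 185 counts in a library.

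The fragment of positions 1 to 20 followed the library number instead. It had 3208, 267 and 363 CPM in hypoxia and 3392, 520 and 869 CPM in normoxia, and so made up 21.1% and 18.3% of the Ser 5′ end counts in the libraries numbered 1 and 3.16% to 6.10% in the other 4. This rung was picked out after its values were seen. By contrast, positions 1 to 41, the longest of the abundant ones, had 1510, 1244 and 1044 CPM in hypoxia and 1765, 1287 and 1771 CPM in normoxia, with pair ratios of 0.86, 0.97 and 0.59.

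As a share of the Ser 5′ end counts, which does not depend on library scaling, the fragment ending at position 22 held 1.65%, 2.87% and 2.67% in hypoxia and 4.66%, 6.77% and 7.77% in normoxia. For each 100 counts ending at position 21, 1 base shorter, there were 8.15, 11.8 and 11.8 ending at position 22 in hypoxia and 17.9, 29.7 and 36.9 in normoxia. This ratio was chosen after the values were seen and is given without a test. Ends at position 27 took 4.19%, 3.45% and 2.69% of the Ser 5′ end counts in hypoxia and 1.58%, 2.12% and 2.11% in normoxia, while their levels had pair ratios of 2.18, 1.25 and 0.73 and a log2 difference of 0.34 (SE 0.52, adjusted p = 0.9999 in edgeR). Of the 31 end positions of this ladder, the groups' shares did not overlap at 1 that was lower in hypoxia (position 22) and at 4 that were higher (positions 25, 27, 29 and 31), given as a description without a test. By CPM, 2.51% of all tested sequences were lower and 2.32% higher without overlap; the share measure was not computed for other tRNAs. In CPM, 0 of the 47 tested Ser sequences were higher without overlap. Position 29 rests on 3 to 14 counts in a library, and position 31 had pair ratios of 2.12, 0.94 and 0.63.

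**Figure D4:**
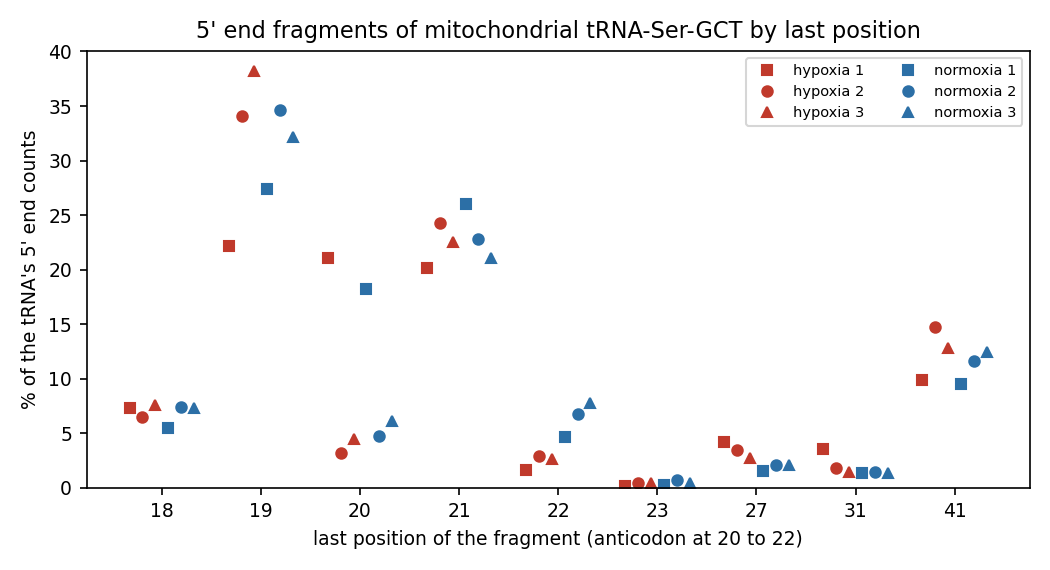
Percent of the 5′ end counts of tRNA-Ser-GCT by the last position of the fragment, 1 marker per library, with hypoxia in red and normoxia in blue. At position 22 the hypoxia libraries lie at 1.65% to 2.87% and the normoxia libraries at 4.66% to 7.77%, and at position 20 the libraries numbered 1 lie at 21.1% and 18.3%, above the other 4.

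Fragments of tRNA-Ser-GCT outside the 5′ end class were few. The largest of them, positions 2 to 21, had 133, 86.2 and 62.4 CPM in hypoxia and 118, 107 and 36.8 CPM in normoxia, with overlapping groups. A fragment of positions 2 to 18 had 29.4, 15.6 and 7.58 CPM against 6.05, 9.47 and 3.07 CPM, higher in hypoxia in 3 of 3 pairs, with a log2 difference of 1.28 (SE 0.81, adjusted p = 0.9999 in edgeR). That of positions 3 to 21 had 11.8, 8.58 and 10.5 CPM against 18.1, 41.03 and 19.02 CPM, lower in 3 of 3 pairs without overlap, at -1.45 (SE 0.73, adjusted p = 0.9999 in edgeR). All of these rest on 2 to 238 counts in a library. CCA ends of tRNA-Ser-GCT had 0, 5 and 2 counts in hypoxia against 0, 6 and 29 in normoxia, of which 24 in normoxia 3 belonged to the fragment of positions 46 to 62.

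In tRNA-His-GTG the fragments spread over many starts before the anticodon and many ends after it. Starts at positions 12 to 18 held 52.4% of its summed counts, and ends at positions 37 or 50 held 43.01%. The fragment of positions 22 to 37, a 16-nt piece around the anticodon, had 558, 440 and 402 CPM in hypoxia and 889, 420 and 454 CPM in normoxia. That of positions 15 to 50 had 609, 331 and 205 CPM against 665, 331 and 547 CPM, with pair ratios of 0.92, 0.998 and 0.38. The groups overlapped for both of these main fragments.

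Ends at position 37 took 12.7%, 25.6% and 27.3% of the His counts in hypoxia and 17.2%, 23.3% and 17.8% in normoxia. Ends at position 50 took 14.9%, 24.4% and 24.2% against 12.3%, 24.7% and 28.05%. Both shares were lowest in the libraries numbered 1 and overlapped between the groups. The third of the abundant His fragments, positions 15 to 56, was high in the libraries numbered 1, at 447 and 801 CPM, against 54.6 to 84.3 CPM in the other 4.

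Among the His fragments with the smallest unadjusted p, that of positions 24 to 43 had 4, 1 and 5 counts in hypoxia against 8, 46 and 28 in normoxia, or 7.84, 0.39 and 2.92 CPM against 24.2, 20.7 and 17.2 CPM. The groups did not overlap, and the log2 difference was -2.77 (SE 0.98, adjusted p = 0.9999, unadjusted p = 0.023 in edgeR). That of positions 15 to 40 had 31.3, 11.7 and 19.3 CPM against 42.3, 45.1 and 55.8 CPM, at -1.34 (SE 0.65, adjusted p = 0.9999 in edgeR), also without overlap. The 2 higher ones named by the rule were positions 17 to 56, at 54.9, 7.02 and 15.7 CPM against 24.2, 4.96 and 3.68 CPM (higher in 3 of 3 pairs), and positions 12 to 49, at 145, 3.12 and 18.1 CPM against 39.3, 13.1 and 16.0 CPM (higher in 2 of 3). Neither was called.

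The 5′ end class of tRNA-His-GTG consisted of 10 sequences, and each of them began with an extra G before position 1. They had 8, 5 and 0 counts in hypoxia 1 to 3, while normoxia 1 to 3 had 9, 65 and 20. The share of the His counts was 0.121%, 0.062% and 0% in hypoxia, where 0 of 4890 counts allows up to 0.061%, and 0.198%, 0.786% and 0.231% in normoxia. The means were 0.061 ± 0.061% and 0.405 ± 0.330% (SD, n = 3 each), the groups did not overlap, and the exact two-sided permutation test gave p = 0.1, the smallest it can give, and an adjusted p of 0.764. The edgeR fit gave -2.64, as above, and -3.02 with the block (SE 0.99, adjusted p = 0.252). The most abundant of them, which ends at position 39, had 4, 0 and 0 counts against 2, 31 and 5, so normoxia 2 held most of the class. Fragments starting at position 1 without the extra G stand in the table's internal class and had 54 counts in all. These were 14, 2 and 5 counts in hypoxia 1 to 3 and 19, 13 and 1 in normoxia 1 to 3. Their pair ratios in CPM were 0.48, 0.13 and 4.75, with overlapping groups and no common direction. Whether the extra G is encoded by the base before the gene was not checked here.

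At the other end of tRNA-His-GTG, 31, 80 and 65 counts in hypoxia, against 18, 53 and 81 in normoxia, reached the last encoded base or the tail. The complete CCA was present in 12.9%, 31.2% and 10.8% of them in hypoxia and in 16.7%, 16.98% and 24.7% in normoxia, with means of 18.3 ± 11.3% and 19.4 ± 4.55% (SD, n = 3 each; exact permutation p = 1, adjusted p = 1). Positions 25 to 67, a fragment that stops at the last encoded base, gave 12, 22 and 8 counts against 12, 16 and 19. Positions 55 to 70, with the complete tail, gave 4, 25 and 7 counts against 0, 8 and 18. Neither end class separated the groups.

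In tRNA-Leu-TAG the choice of ends followed the library number. Ends at positions 36 or 40, just past the anticodon, took 57.9% and 61.5% of the Leu counts in hypoxia 1 and normoxia 1, and 10.1% to 14.7% in the other 4. Ends at position 33, the first anticodon base, took 1.25% and 0.694% in the libraries numbered 1 and 21.4% to 24.4% in the other 4. Ends at position 39 took 4.33% and 5.45% in the libraries numbered 1, 32.3% and 31.9% in hypoxia 2 and 3 and 24.5% and 13.7% in normoxia 2 and 3. These positions were picked out after their values were seen.

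The fragment of positions 1 to 40 had 621 and 689 CPM in the libraries numbered 1, and 0 and 0.58 CPM in hypoxia 2 and 3 and 3.61 and 3.68 CPM in normoxia 2 and 3. It did not pass the filter and was not tested. That of positions 17 to 40 had 306, 11.3 and 9.92 CPM in hypoxia and 481, 8.12 and 4.91 CPM in normoxia, and that of positions 20 to 40 had 282, 10.9 and 1.75 CPM against 381, 13.5 and 22.1 CPM. In contrast, that of positions 17 to 33, chosen after its values were seen, was as high in the other libraries as in those numbered 1, at 62.7, 54.998 and 67.1 CPM in hypoxia and 30.2, 81.6 and 59.5 CPM in normoxia. Fragments of 30 nt or longer took 40.6% and 38.999% of the Leu counts in the libraries numbered 1 and 4.37% to 11.2% in the other 4, while those of 15 to 24 nt still took 51.7% and 54.01% in the libraries numbered 1. Both long and short fragments were thus among the Leu counts of these libraries, whose part in the group differences was not tested beyond the values without them.

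**Figure D5:**
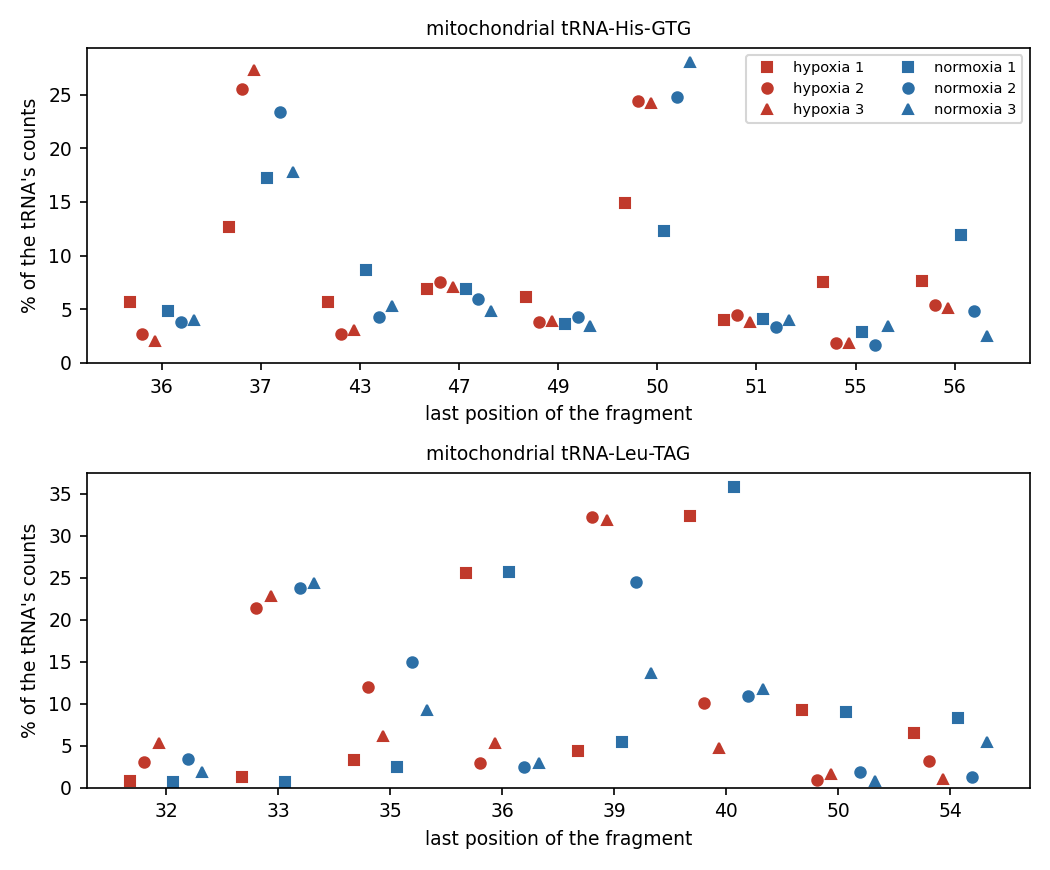
Percent of the counts of tRNA-His-GTG (top) and tRNA-Leu-TAG (bottom) by the last position of the fragment, 1 marker per library, with hypoxia in red and normoxia in blue. In tRNA-Leu-TAG the libraries numbered 1 (squares) lie at 32.4% and 35.8% at position 40 and at 1.25% and 0.694% at position 33, apart from the other 4, and at no position shown do the hypoxia and normoxia libraries of tRNA-Leu-TAG separate.

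The 5′ end class of tRNA-Leu-TAG had 575, 25 and 16 counts in hypoxia against 364, 50 and 64 in normoxia. In the pairs numbered 2 and 3 hypoxia was at 0.43 and 0.24 times normoxia, and in the pair numbered 1 at 1.02 times. The log2 difference in edgeR was -0.12 (SE 1.91) with the group alone, -0.9998 (SE 0.42, adjusted p = 0.328) with the block and -1.72 (SE 0.53, adjusted p = 0.108) without the libraries numbered 1. The internal fragments were at -0.13 (SE 1.19) with the group alone and at 0.08 (SE 0.23, adjusted p = 0.849 in edgeR) without the libraries numbered 1. Of the internal ones named by the rule, positions 21 to 39 had 5.88, 10.5 and 21.004 CPM against 15.1, 3.61 and 4.91 CPM, positions 17 to 39 had 37.2, 20.7 and 42.0 against 54.4, 25.7 and 8.59 CPM, and positions 20 to 35 had 19.6, 8.58 and 1.75 against 15.1, 9.92 and 8.59 CPM, all with overlapping groups. 3′ ends and CCA ends of tRNA-Leu-TAG had 0 to 2 counts in each library, too few to compare.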

How the data were processed

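Small RNA of 6 libraries (3 hypoxia, 3 normoxia) was measured. The deposited values are raw read counts per distinct sequence of 15 to 45 nt, not normalized. Per the labels, libraries followed the PANDORA-seq strategy, and per the submitters' processing notes the build was mm10. The aligner, annotation tool, tRNA reference and any filter are not stated by the labels or the file. Sample titles gave the groups and replicate numbers. Members, lists and the named fragments' rule were chosen with earlier results of these data known.

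From the counts, CPM used all tsRNA counts of a library. edgeR 4.0.16 (quasi-likelihood, TMM) was fitted to the 6452 of the 38798 sequences that passed filterByExpr. It was also fitted to sums over 73 tRNA families without that filter, and to the 240 sums over families and classes that passed it. Each fit had Benjamini-Hochberg adjustment, and DESeq2 1.42.0 and limma 3.58.1 (voom) were alternatives. The fits were also run on simulated counts, with a common mean profile for all libraries and no effect of the replicate number. That simulation cannot show how the fits handle the libraries numbered 1. Shares and lengths were compared by exact permutation tests (SciPy 1.17.1). Positions came from exact matches to the GENCODE M21 gene plus CCA, except for 10 members that have an extra G in front. The group-centred values of libraries with the same number correlated at 0.77, 0.51 and 0.43 over 6452 sequences, but at -0.02 when replicates 2 and 3 alone were used, so the pairing rests on the libraries numbered 1.

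Named for each tRNA were the sequences called in either fit, the 3 most abundant, the most abundant of each class and, at a mean of at least 10 CPM, the 2 higher and 2 lower with the smallest unadjusted p; others are said to be chosen after their values were seen. Alternatives were other scalings, tools and filters, the replicate block, a minimum length of 18 nt and leaving out libraries.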

Additional observations from a re-analysis of the deposited data

How the results depend on the processing

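Main limits are the 3 libraries per group and the libraries numbered 1, which hold 510519 and 330787 counts. Scaling moved the median over all families from -0.07 (TMM) to 0.11 (DESeq2 size factors), and relative to it tRNA-Ser-GCT was at -0.46 and -0.47, tRNA-His-GTG at -0.32 and -0.32 and tRNA-Leu-TAG at -0.08 and -0.06. The log2 difference of tRNA-Leu-TAG turned from -0.15 to 0.055 with DESeq2 size factors in edgeR, 0.054 with DESeq2 and 0.12 with the replicate block and DESeq2 size factors; the scaling shift just given is of that size. Its 5′ end class turned to 0.081 with no filter, and its internal class to 0.088 with limma voom, 0.042 with no filter and 0.050 with the block and DESeq2 size factors. With the replicate block, with the libraries numbered 1 as a term, and with the block and DESeq2 size factors, 1 member sequence was called in place of 0, the Ser fragment of positions 1 to 22 each time, at -1.93, -1.95 and -1.96; the block with all libraries changed no call of a family or class member. The His fragment of positions 12 to 49 turned to -0.33 with limma voom. The Leu fragment of positions 17 to 40 turned to 0.57 with limma voom, 0.13 with the block, 0.12 with the term for the libraries numbered 1 and 0.095 with the block and DESeq2 size factors. The difference in mean His length turned from -0.017 to 0.297 nt at a minimum of 18 nt; the share of complete tails had no value there. Counting sequences shared with other tRNAs changed nothing, since 0 members are shared. The cause was not tested for any of these changes.

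Leaving out libraries, with the group alone, gave calls of 0 to 1 member sequences and 0 to 1 member families. The log2 difference ran from -0.63 to -0.37 for tRNA-Ser-GCT, from -0.86 to -0.12 for tRNA-His-GTG and from -1.99 to 1.85 for tRNA-Leu-TAG, whose 5′ end class ran from -4.38 to 2.55, internal class from -1.69 to 1.66, share of mitochondrial counts from -1.19 to 1.13 points and mean length from -2.51 to 1.55 nt. For tRNA-His-GTG the complete tail ran from -7.61 to 2.63 points and the mean length from -0.896 to 0.495 nt. Named Ser fragments ran from -2.20 to -1.58 (positions 1 to 22), -0.11 to 0.55 (1 to 27) and -0.21 to 0.64 (2 to 21). His fragments ran from -0.73 to 1.48 (12 to 49), -1.40 to 1.12 (15 to 56) and -0.35 to 1.497 (55 to 70), and Leu fragments from -0.050 to 0.82 (17 to 39), -3.23 to 3.41 (17 to 40), -0.86 to 0.046 (20 to 35) and -3.77 to 1.81 (20 to 40).

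With the replicate block and without the libraries numbered 1, tRNA-His-GTG (-0.59) and tRNA-Ser-GCT (-0.61) were called, 2 families, as was the Ser fragment of positions 1 to 22 (-2.02), 1 sequence. That fit had 2 libraries left in each group, and replicates 2 and 3 alone showed no pairing. The internal Leu class turned to 0.086, His fragments to -0.91 (12 to 49), 0.22 (15 to 56) and -0.021 (55 to 70), the Leu fragment of positions 17 to 40 to 0.69 and the Ser fragment of positions 1 to 27 to -0.11. With the block and without the libraries numbered 2, tRNA-Leu-TAG turned to 0.10, its internal class to 0.19 and positions 17 to 40 to 0.036. With the block and without the libraries numbered 3, the Ser fragment of positions 1 to 22 (-1.69) was called, and Leu fragments turned to -0.41 (17 to 39) and 0.057 (20 to 35) and the Ser fragment of positions 2 to 21 to -0.076. Counting each result once in each setting, 661 kept the same direction and side of the threshold, 68 turned the direction and 17 added a call. Many of these results share counts and settings, so they are not independent.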
